A study of Mus musculus with 24 samples.

Results

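The genes described here are those of the mouse mitochondrial genome: all 37 entries of the deposited count table that lie on the mitochondrial chromosome, out of 78298 gene entries in all. They comprise 13 protein genes, 2 ribosomal RNA genes and 22 transfer RNA genes. Membership was set by chromosome alone, although the set was chosen with earlier results of these data known. Their levels were compared in liver between 6 normal control mice and 18 mice of a steatohepatitis model, 1 library per mouse. Steatohepatitis is fatty liver with inflammation and liver cell injury; the sources used here do not say how it was induced or give the strain, sex and age of the mice. RNA was captured on oligo(dT) beads, so RNA without a poly(A) tail is under-represented in these libraries.

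The mitochondrial genome is a small circle present in many copies per cell, transcribed from both strands as long precursors that are cut apart, mostly at the transfer RNAs that lie between the other genes. Its protein genes encode subunits of respiratory complexes I, III, IV and V, and its ribosomal and transfer RNAs serve the translation of those proteins inside the organelle. Most mitochondrial messenger RNAs carry poly(A) tails in mammals, the ribosomal RNAs carry at most short ones, and mature transfer RNAs end in CCA. Hepatocytes are rich in mitochondria.

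In model livers the 2 ribosomal RNA genes and 5 transfer RNA genes fell, while none of the 12 protein genes tested passed the test in either direction. The ribosomal RNAs mt-Rnr1 and mt-Rnr2 averaged 55.3% and 54.2% of their control levels and mt-Tp, the proline transfer RNA, 53.5%. These are levels of RNA captured on oligo(dT), and the whole pool of these ribosomal and transfer RNAs was not measured. The most abundant member, mt-Co1, averaged 105% of control. Of the 29 members that passed the filter on low counts, 0 were called higher and 7 lower (24.1%) by edgeR's quasi-likelihood test with Benjamini-Hochberg adjustment over all genes, at an adjusted p below 0.05. At an unadjusted p below 0.05 the fit gave 0 members higher, 9 lower and 0 of the 12 protein genes, and DESeq2 called 0 higher and 8 lower and limma-voom 0 higher and 6 lower, with no protein gene in either. Over all 17456 genes tested the same edgeR test called 31.2% higher and 28.8% lower, so the share of members called lower lay near the background. The other 22 members (75.9%) did not pass, against 39.96% of all genes tested. The median log2 fold change, model over control, was -0.18 over the members tested and 0.01 over all genes tested. No member had groups that did not overlap, while 9.67% of all genes tested had every model library above every control and 6.02% every model library below.

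Sequences are shown for 2 sets of members, those that carry the transfer RNA result and those whose reads cannot be placed with certainty. They come from the GENCODE M21 transcripts of the GRCm38 build, in which all 37 members were found at the length given in the deposited table. The first set is the 3 transfer RNAs with the highest mean level, all encoded on the light strand. Capitals mark the anticodon, taken as the middle 3 bases of a 7-base loop closed by 5 base pairs.
mt-Tp: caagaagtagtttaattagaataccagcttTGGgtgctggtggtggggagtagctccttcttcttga
mt-Tc: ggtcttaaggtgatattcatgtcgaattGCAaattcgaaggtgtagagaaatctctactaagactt
mt-Tn: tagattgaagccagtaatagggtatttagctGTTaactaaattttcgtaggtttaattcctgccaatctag
These carry proline, cysteine and asparagine. mt-Tp lies beside the control region at positions 15356 to 15422 of the mitochondrial chromosome. mt-Tn (5089 to 5159) and mt-Tc (5192 to 5257) lie next to mt-Ty (5260 to 5326), the tyrosine transfer RNA, in a cluster of light-strand genes between mt-Nd2 and mt-Co1. Positions are those of the deposited table, on GRCm39.

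The second set shows a nearly perfect nuclear copy of part of the mitochondrial genome. A run of 7 annotated genes on chromosome 1, minus strand, from 24650616 to 24655278 in GRCm39, repeats mitochondrial protein genes between positions 6390 and 11042 in the same order. The segment holds the last 483 bases of mt-Co1, the whole of mt-Co2, mt-Atp8, mt-Atp6, mt-Co3, mt-Nd3 and mt-Nd4l, the first 876 bases of mt-Nd4, and 5 transfer RNA genes. No annotated copy was compared with mt-Atp8 itself or with the 5 transfer RNA genes, so only their position places them in the segment. Of the 7 annotated copies, 5 have no difference from the mitochondrial gene over the whole copy. The first 60 bases of mt-Atp6, the membrane subunit of ATP synthase that forms part of its proton channel, are shown once because its copy Gm10925 (678 bases) is identical. Capitals in the other 4 lines mark the only base that differs between gene and copy within the bases that align, shown with the bases around it.
mt-Atp6: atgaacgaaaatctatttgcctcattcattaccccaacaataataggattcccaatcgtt
mt-Nd3: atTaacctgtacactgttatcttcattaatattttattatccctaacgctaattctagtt
Gm28438: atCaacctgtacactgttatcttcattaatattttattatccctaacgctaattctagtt
mt-Co1: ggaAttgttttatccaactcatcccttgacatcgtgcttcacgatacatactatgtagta
Gm29216: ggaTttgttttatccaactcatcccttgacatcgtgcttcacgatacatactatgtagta
Counted from the first base of the mitochondrial gene, the differences are T3C in mt-Nd3 and A1066T in mt-Co1, the mitochondrial base first. Gm28438 matches mt-Nd3 at 99.7% of 345 bases. Gm29216 is 492 bases long and matches mt-Co1 at 99.8% of the 483 bases that align. The sources used here do not say how reads that match both places were counted, so the levels of the genes wholly or partly inside the segment are uncertain. Within the segment mt-Atp8 and mt-Atp6 also overlap each other by 43 bases, in capitals in the last 80 bases of mt-Atp8.
mt-Atp8: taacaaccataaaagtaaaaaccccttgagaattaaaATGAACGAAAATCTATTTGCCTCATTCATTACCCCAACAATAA
Other members also share bases: mt-Nd4l and mt-Nd4 overlap by 7, and mt-Nd5 and mt-Nd6 by 14 on opposite strands, with the strand setting of the counting not given.

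Library totals ranged from 31600129 to 49532934 counts in controls and from 32201159 to 58413267 in model mice. Levels are given as CPM (counts per 1000000 library counts) scaled with TMM factors, which correct for a few abundant genes taking up a library; the factors averaged 0.843 ± 0.0285 (SD, n = 6) in controls and 1.06 ± 0.0610 (SD, n = 18) in model mice and so differ between the groups. Scaling by library totals alone raises every log2 fold change, and moves the median over all genes tested from 0.01 to 0.34. The summed level of the hepatocyte markers (7 of 8 in the table, 6 lower, 0 higher) was 116439.7 to 181608 CPM in controls and 56972 to 117801 CPM in model livers, and all 7 macrophage markers rose, from 52.8 to 136 CPM in controls to 291 to 1045 CPM in model livers. Of the other lists, all 5 T and NK cell, all 5 B cell and all 5 stellate cell markers, 4 of 5 endothelial, 3 of 4 neutrophil and 1 of 5 cholangiocyte markers rose, the erythroid markers fell (3 of 3 tested, with Hbb-bs at 0 in every library), and muscle and brown fat markers stayed at or under 0.119 CPM. For comparison, 31.2% of all genes tested were called higher and 28.8% lower. The part of cell composition in the results below was not tested, and fewer mitochondria per cell, fewer cells of a type and less RNA per cell cannot be told apart in bulk tissue. An index of clock genes (those that peak with Bmal1 minus those that peak with Dbp and the Per genes, mean log2 CPM) was -1.02 to 0.95 in controls 1 to 5, -3.29 in control 6 and -3.52 to -2.42 in model mice, so it moved with the group, and its part was not tested beyond the fit with it as a covariate, given with the results.

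Mitochondrial genes took 5.00% ± 0.92 of library counts in controls (SD, n = 6; 3.60% to 5.94%) and 6.03% ± 0.90 in model mice (SD, n = 18; 4.11% to 8.09%). The ranges overlapped, and no test was made on this sum over the members. Within the mitochondrial counts the protein genes held 97.9% ± 0.35 in controls and 98.8% ± 0.25 in model mice. The ribosomal RNA genes held 1.75% ± 0.34 in controls (1.28% to 2.15%) and 0.997% ± 0.238 in model mice (0.708% to 1.80%). The transfer RNA genes held 0.370% ± 0.080 in controls and 0.229% ± 0.044 in model mice. These shares within the mitochondrial counts do not depend on how libraries are scaled. mt-Co1 alone made up 43.4% ± 3.80 of mitochondrial counts in controls and 47.1% ± 3.39 in model mice, and with mt-Cytb, mt-Nd2, mt-Nd1, mt-Nd5 and mt-Nd4 it held 97.5% of all mitochondrial counts. The genes of the copied segment hold few counts here, and how their reads were treated is not known. All shares in this paragraph are therefore shares of the deposited counts and may differ from those of the RNA in the tissue.

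Per length, the levels of the members ran over several orders of magnitude. In controls mt-Co1, the catalytic core subunit of cytochrome c oxidase, stood at 16504 ± 2135 CPM per kilobase (SD, n = 6). It was followed by mt-Cytb at 9585 ± 2273, mt-Nd2 at 7316 ± 1128, mt-Nd1 at 6539 ± 1561, mt-Nd4 at 2334 ± 608, mt-Nd5 at 2059 ± 641 and mt-Nd6 at 1212 ± 287 CPM per kilobase. The neighbours mt-Nd2 and mt-Nd1 differed by less than their SDs, as did mt-Nd4 and mt-Nd5. For mt-Co1 and mt-Nd4 the whole length was used, although 483 of 1545 and 876 of 1378 bases lie inside the copied segment. Reads from those bases may be missing from both genes, so their levels per length and their places in this order are uncertain. The transfer RNA gene mt-Tp, at 1646 ± 388 CPM per kilobase, lay between mt-Nd5 and mt-Nd6, while mt-Rnr1 stood at 514 ± 120 and mt-Rnr2 at 351 ± 126. The protein genes wholly inside the copied segment were far lower: mt-Nd3 at 63.6 ± 37.5, mt-Co3 at 7.41 ± 2.35, mt-Co2 at 4.81 ± 2.98, mt-Atp6 at 4.03 ± 1.88, mt-Nd4l at 3.18 ± 0.72 and mt-Atp8 at 0.419 ± 0.301 CPM per kilobase. 5 transfer RNA genes, mt-Tf, mt-Tv, mt-Ts1, mt-Td and mt-Tk, had 0 counts in all 24 libraries, which allows up to 3 counts per library or 0.0489 to 0.107 CPM on the same TMM scale; this floor covers counting error only. The last 3 of them lie inside the segment.

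**Figure D1:**
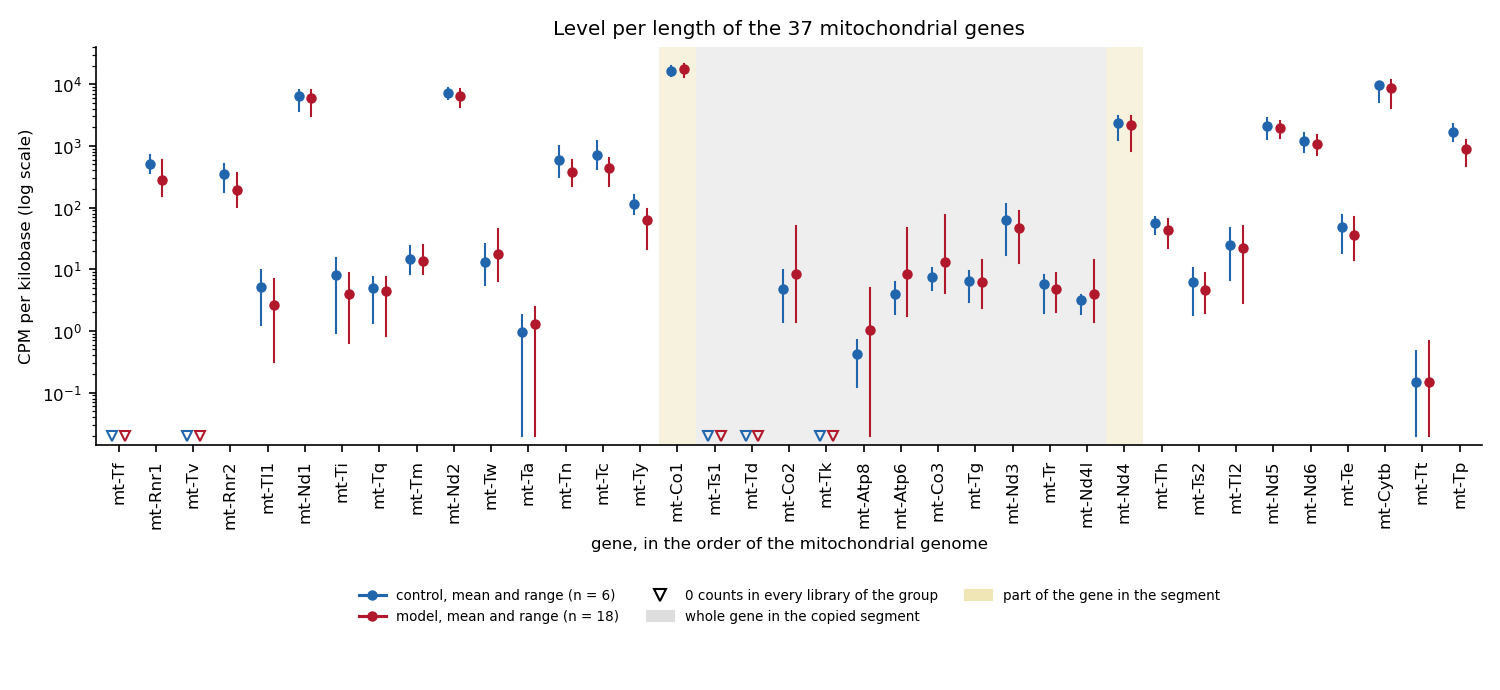
The level per length of all 37 members (CPM per kilobase, log axis) is drawn in genome order, with the mean as a point and the range over libraries as a line, control in blue (n = 6) and model in red (n = 18); a line that reaches the bottom includes a library at 0. The genes inside the grey segment lie far below their neighbours mt-Co1 and mt-Nd4 in both groups.

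Both ribosomal RNA genes were lower in model mice, as captured on oligo(dT). mt-Rnr1 encodes the 12S RNA of the small mitochondrial ribosomal subunit and spans positions 70 to 1024. Its level was 352, 473 and 676 CPM in controls (lowest, median, highest) and 148, 259.7 and 563 CPM in model mice. Of the 18 model libraries, 17 lay below every control, and model mouse 10, at 563 CPM, was the exception. The means were 491 ± 114 CPM (SD, n = 6) and 272 ± 88.2 CPM (SD, n = 18), a log2 fold change of -0.85 (SE 0.17, edgeR adjusted p = 0.000136).

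mt-Rnr2 encodes the 16S RNA of the large subunit and spans positions 1094 to 2675. Its level was 287, 546 and 792 CPM in controls and 162, 271 and 580.5 CPM in model mice. The groups overlapped more than for mt-Rnr1, because control 5 was low: 10 of 18 model libraries lay below every control. The means were 555 ± 199.7 CPM (SD, n = 6) and 301 ± 94.4 CPM (SD, n = 18), a log2 fold change of -0.88 (SE 0.19, edgeR adjusted p = 0.000364). Both calls held under every scaling and filter tried, with smaller values under library totals alone (-0.54 for mt-Rnr1 and -0.57 for mt-Rnr2). With the clock index as a covariate neither passed (edgeR, mt-Rnr1 -0.68, adjusted p = 0.0658; mt-Rnr2 -0.54, adjusted p = 0.193). Control 6, whose clock index lay among those of the model mice, had 493 CPM of mt-Rnr1 and 504 CPM of mt-Rnr2, each above 17 of 18 model libraries.

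Among the transfer RNA genes, 15 of 22 were tested, 5 fell (33.3%, near the 28.8% of all genes) and 0 rose. mt-Tp was the highest of them, with 79.1, 103 and 152 CPM in controls and 31.8, 58.9 and 84.3 CPM in model mice. In 16 of 18 model libraries it lay below every control. The means were 110.3 ± 26.0 CPM (SD, n = 6) and 58.98 ± 15.1 CPM (SD, n = 18), a log2 fold change of -0.90 (SE 0.16, edgeR adjusted p = 2.35e-05), the smallest adjusted p among the members.

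mt-Tc had 28.3, 40.2 and 80.0 CPM in controls and 14.5, 29.6 and 41.7 CPM in model mice. The groups overlapped, with 6 of 18 model libraries below every control, and the log2 fold change was -0.72 (SE 0.19, edgeR adjusted p = 0.00223). Its neighbour mt-Tn had 22.0, 38.0 and 70.4 CPM in controls and 16.1, 26.6 and 41.8 CPM in model mice, a log2 fold change of -0.61 (SE 0.18, edgeR adjusted p = 0.00449). In both genes control 6 was the lowest control and control 1 the highest. mt-Ty had 5.18, 7.37 and 10.6 CPM in controls and 1.41, 4.34 and 6.38 CPM in model mice, with 14 of 18 model libraries below every control and a log2 fold change of -0.85 (SE 0.20, edgeR adjusted p = 0.000673). The fifth, mt-Tl1, a leucine transfer RNA beside mt-Rnr2, rested on 77 counts in all controls and 158 in all model mice (-0.95, SE 0.40, edgeR adjusted p = 0.0446), and its call was lost when any of 14 of the 24 libraries was left out, most with control 1 out (-0.66, adjusted p = 0.202).

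By strand, 4 of the 6 light-strand transfer RNA genes tested fell (mt-Tp, mt-Tc, mt-Tn and mt-Ty) and 1 of the 9 heavy-strand ones (mt-Tl1). These are 66.7% and 11.1%, against 28.8% of all genes. Depth differed: heavy-strand genes tested averaged at most 3.77 CPM in controls (mt-Th), and the 4 called light-strand genes at least 7.63 CPM (mt-Ty). The strand setting of the counting is not given, so the strand that the reads came from is not known. The median log2 fold change was -0.67 for the light-strand and -0.27 for the heavy-strand genes, and the difference was not tested. The 8 light-strand genes together, chiefly mt-Tp, mt-Tc and mt-Tn, held 95.7% ± 0.88 of transfer RNA counts in controls and 93.8% ± 1.42 in model mice. Light-strand members not called were mt-Tq and mt-Te, at -0.18 and -0.44. Under library totals alone mt-Tp (-0.58, adjusted p = 0.0018) and mt-Ty (-0.52, adjusted p = 0.0259) still passed, and mt-Tc (-0.40, adjusted p = 0.0666) and mt-Tn (-0.29, adjusted p = 0.156) did not, by the same edgeR test. With the clock index as a covariate none passed in edgeR (mt-Rnr1, mt-Tw and mt-Tp had an unadjusted p below 0.05), and mt-Tc and mt-Tn came to 0.01 and 0.19 (adjusted p = 0.979 and 0.638). Control 6 had 79.1 CPM of mt-Tp, above 16 of 18 model libraries, and 6.12 CPM of mt-Ty, above 17, but its mt-Tc and mt-Tn lay above only 6 and 4 of 18. The 10 transfer RNA genes tested but not called ran from -1.02 (mt-Ti, adjusted p = 0.0603) to 0.46 (mt-Tw, adjusted p = 0.292) on the log2 scale, edgeR test.

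**Figure D2:**
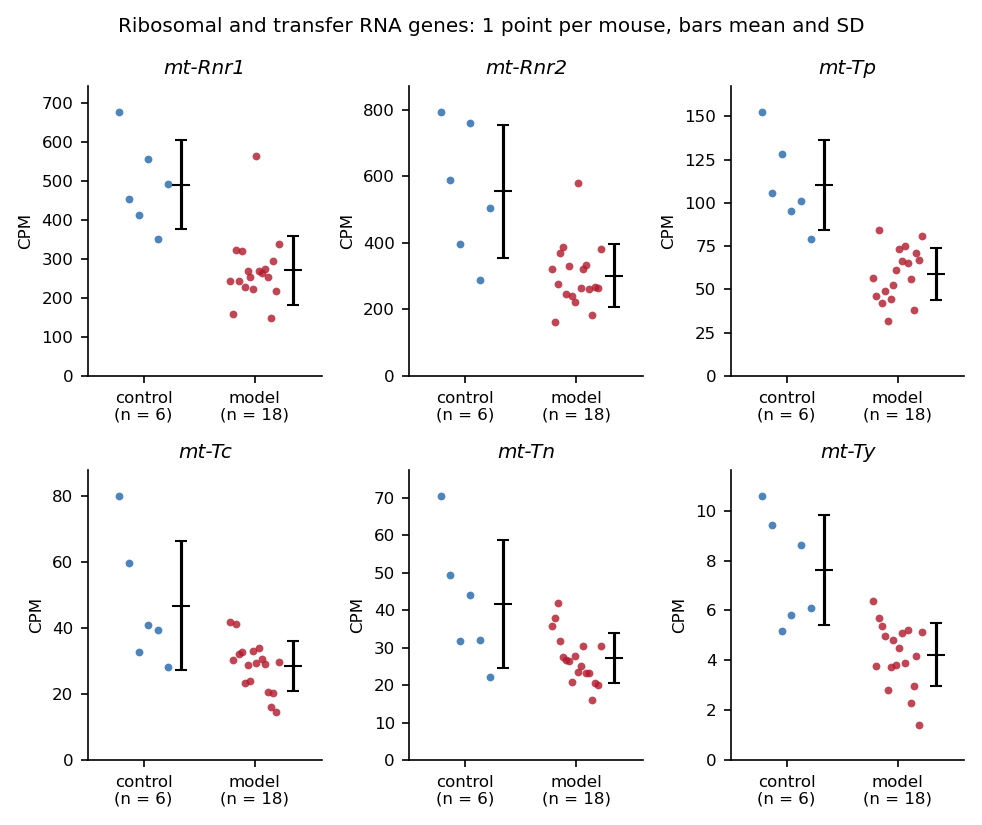
CPM of 6 ribosomal and transfer RNA genes, 1 point per mouse, control in blue (n = 6) and model in red (n = 18), with mean and SD in black. In mt-Rnr1, 17 of 18 model libraries lie below every control, whereas the model range reaches 41.7 CPM in mt-Tc and 41.8 CPM in mt-Tn, above several controls.

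The 7 protein genes with bases outside the copied segment were not called. Complex I, the NADH dehydrogenase that takes electrons from NADH, has 5 of them, all members of its membrane arm. mt-Nd1 had 3542, 6483 and 7665 CPM in controls and 2955, 5798 and 7805 CPM in model mice (-0.11, SE 0.14, edgeR adjusted p = 0.526). mt-Nd2 had 6049, 7753 and 9011 CPM in controls and 4455, 6644 and 8559 CPM in model mice, with a log2 fold change of -0.20 (SE 0.10, edgeR adjusted p = 0.0951). Of the protein genes mt-Nd2 came nearest to passing, and it passed when control 6 (-0.27, adjusted p = 0.0373) or model mouse 10 (-0.23, adjusted p = 0.0440) was left out of the edgeR fit.

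mt-Nd4 had 1723, 3347 and 4121 CPM in controls and 1153, 3019 and 4177 CPM in model mice (-0.10, SE 0.17, edgeR adjusted p = 0.603). mt-Nd5 had 2343, 3823 and 5159.9 CPM in controls and 2415, 3450.1 and 4601 CPM in model mice (-0.11, SE 0.14, edgeR adjusted p = 0.515). In mt-Nd5 every model library lay within the range of the controls. mt-Nd6, the only protein gene on the light strand, had 419.6, 627 and 824 CPM in controls and 369, 564 and 769 CPM in model mice (-0.18, SE 0.13, edgeR adjusted p = 0.244).

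mt-Cytb, the cytochrome b of complex III, had 5908, 12123 and 12625 CPM in controls and 4704, 9929 and 13593 CPM in model mice. Its means were 10965 ± 2601 CPM (SD, n = 6) and 10035 ± 2019 CPM (SD, n = 18), a log2 fold change of -0.13 (SE 0.15, edgeR adjusted p = 0.476). Control 5 lay far below the other controls. mt-Co1 had 21307, 26209 and 29851 CPM in controls and 20470.4, 25910.3 and 32257 CPM in model mice, with 5 of 18 model libraries above every control and 2 below (0.07, SE 0.10, edgeR adjusted p = 0.557).

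The direction of these genes rested on the scaling. With library totals alone all of mt-Nd1 (0.22), mt-Nd2 (0.12), mt-Nd4 (0.22), mt-Nd5 (0.22), mt-Nd6 (0.15) and mt-Cytb (0.20) turned positive, none of them passing, and mt-Co1 passed at 0.40 (edgeR adjusted p = 0.000876). Relative to the median of all genes under that scaling, mt-Co1 was 0.06 higher and mt-Cytb 0.14 lower, mt-Nd2 0.22 lower, mt-Rnr1 0.88 lower and mt-Rnr2 0.91 lower on the log2 scale.

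**Figure D3:**
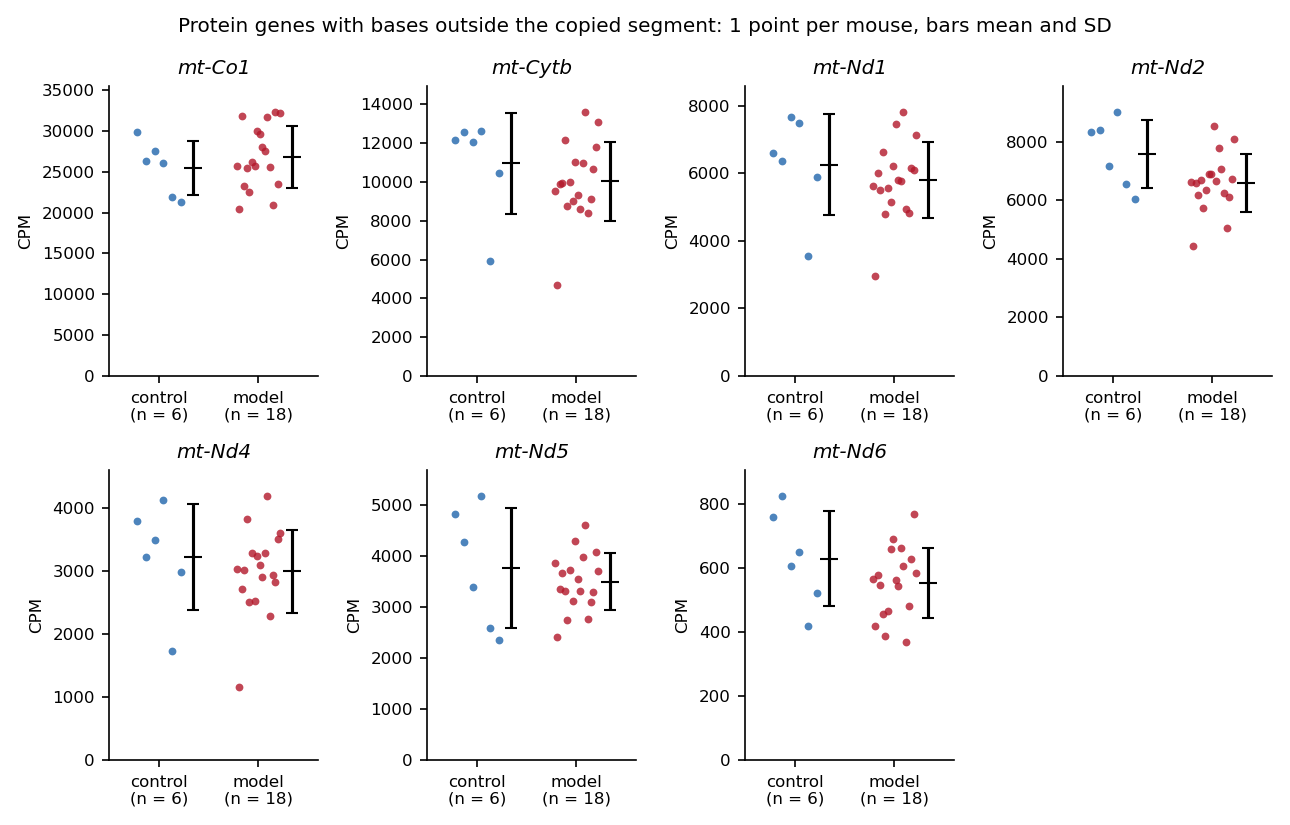
CPM of the 7 protein genes with bases outside the copied segment, 1 point per mouse, control in blue (n = 6) and model in red (n = 18), with mean and SD in black. The groups overlap in each gene; in mt-Cytb 1 control lies at 5908 CPM and the lowest model library at 4704 CPM.

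**Figure D4:**
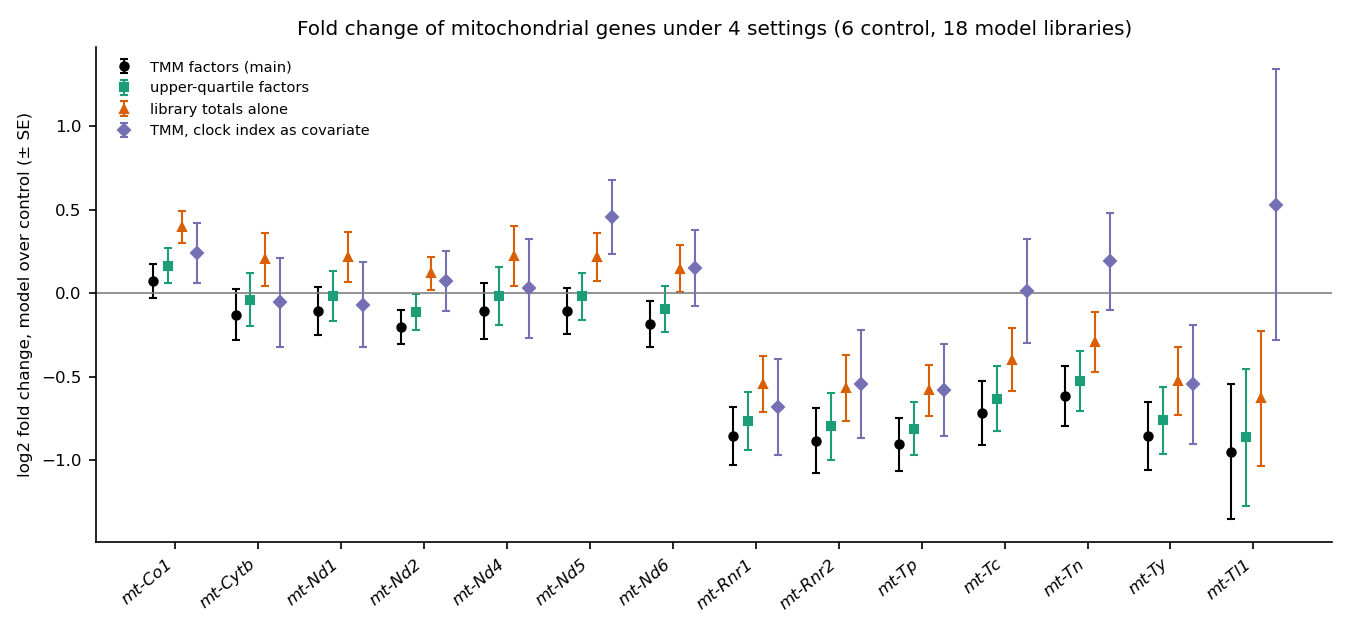
The log2 fold change, model over control, with its SE is drawn for 14 members under 4 settings of the edgeR fit. Of the 7 protein genes on the left, 6 cross 0 between TMM factors and library totals alone, mt-Rnr1, mt-Rnr2, mt-Tp and mt-Ty stay below 0 in all 4, and the 3 others rise above 0 with the clock index as a covariate.

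Ratios between 2 members within a library need no scaling at all. For 6 ratios, the difference in mean log2 ratio was tested by exact permutation (two-sided, every division of the 24 libraries), with Benjamini-Hochberg adjustment over the 6. The ratio of mt-Rnr2 to mt-Co1, a ribosomal against a messenger RNA, fell. It is a ratio of RNA captured on oligo(dT), which under-represents RNA without a poly(A) tail. Per 1000 counts of mt-Co1 there were 13.1 (control 5) to 29.2 (control 4) counts of mt-Rnr2 in controls and 7.44 (model mouse 9) to 19.6 (model mouse 10) in model mice. Of 18 model libraries, 15 lay below every control. The mean log2 ratio was -5.60 ± 0.48 (SD, n = 6) in controls and -6.52 ± 0.37 (SD, n = 18) in model mice, a difference of -0.92 (exact permutation p = 0.000208, adjusted 0.00125).

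The other 5 ratios did not pass, with exact permutation p from 0.661 to 0.822 (adjusted 0.822 each). The 2 ribosomal RNAs, cut from the same precursor, kept a log2 ratio of mt-Rnr1 to mt-Rnr2 of -0.12 ± 0.28 in controls and -0.15 ± 0.21 in model mice (difference -0.03). The light-strand mt-Nd6 against the heavy-strand mt-Cytb differed by -0.06 between the groups. mt-Nd5, far along the heavy-strand precursor, against mt-Nd1, near its start, differed by 0.03. For 2 overlapping pairs inside or at the edge of the segment the difference was 0.13 (mt-Atp8 to mt-Atp6) and 0.12 (mt-Nd4l to mt-Nd4), and the latter was -0.15 without model mice 8 and 16. A p that misses the threshold does not show that these ratios were equal in the 2 groups.

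The 6 protein genes wholly inside the copied segment are the 2 remaining core subunits of cytochrome c oxidase (mt-Co2 and mt-Co3), 2 subunits of ATP synthase (mt-Atp6 and mt-Atp8) and 2 of complex I (mt-Nd3 and mt-Nd4l). None of the 5 tested was called, and mt-Atp8 was not tested, with 16 counts in all controls and 145 in all model mice. Model mice 8 and 16 stood apart from the other 22 libraries in 5 of the 6. mt-Co2 had 871 and 1247 counts in these 2 libraries and 39 to 194 in the others, or 26.0 and 38.7 CPM by library totals against a median of 2.75. mt-Atp6 had 911 and 1156 counts against 44 to 162, and mt-Co3 had 1385 and 2103 against 115 to 372. mt-Nd4l had 125 and 149 counts against 14 to 59, and mt-Atp8 had 0.926 and 1.12 CPM by library totals against at most 0.414 in the other 22.

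mt-Nd3 did not follow this pattern. It had 400 and 983 counts in model mice 8 and 16, inside the range of 186 to 1547 in the other 22 libraries, and its own spread was wide, with controls 5 and 6 at 5.85 and 7.00 CPM and the other controls at 26.5 to 39.0 CPM. Its log2 fold change was -0.46 (SE 0.38, edgeR adjusted p = 0.308).

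Of the 7 chromosome 1 copies, 6 were also high in model mice 8 and 16. Gm28661, the copy of mt-Co2, had 721 and 913 counts in model mice 8 and 16 and 46 to 167 in the others. Gm10925 (mt-Atp6) had 876 and 1118 against 45 to 349, Gm28437 (mt-Co3) 1089 and 1703 against 51 to 181, and Gm10222 (mt-Nd4l) 81 and 98 against 4 to 60. So were Gm29216 (end of mt-Co1), with 1078 and 1425 against 50 to 201, and Gm28439 (start of mt-Nd4), with 227 and 279 against 12 to 67, although mt-Co1 and mt-Nd4 themselves, which extend beyond the segment and had 25794517 and 2979915 counts in total, had counts within the range of the other libraries. In total over the 24 libraries, mt-Atp6 had 4393 counts and its copy 4876, mt-Co2 had 4540 and its copy 3828, mt-Co3 had 8288 and its copy 5334, and mt-Nd4l had 1029 and its copy 473. Of these 4 pairs, the copy had more counts than the gene at mt-Atp6 and fewer at the other 3. Gm28438, which differs from mt-Nd3 at base 3, had 0 counts in every library, with 17029 in mt-Nd3.

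Of 14004 genes with at least 20 counts in both of these libraries, 15 lay over 2-fold above all other 22 libraries in both: mt-Co2, mt-Atp8, mt-Atp6, mt-Co3 and mt-Nd4l, 5 of the chromosome 1 copies, and the 5 genes Gm13340, Gm13493, Gm13408, Gm5559 and Rpl10-ps5, named after their values were seen. None lay over 2-fold below, but the minimum of 20 counts was set on these 2 libraries and so removes genes that are low in them. These 2 libraries were singled out after seeing the data. Leaving them out turned the log2 fold change of mt-Co2 from 0.80 to -0.30, of mt-Atp6 from 1.04 to -0.04, of mt-Co3 from 0.82 to -0.13 and of mt-Nd4l from 0.28 to -0.22, with none called by edgeR in either fit (adjusted p of 0.197 to 0.556 with them and 0.310 to 0.898 without). The ribosomal and transfer RNA results did not rest on them, except for mt-Tl1, whose adjusted p rose to 0.0693 in the edgeR fit without them.

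**Figure D5:**
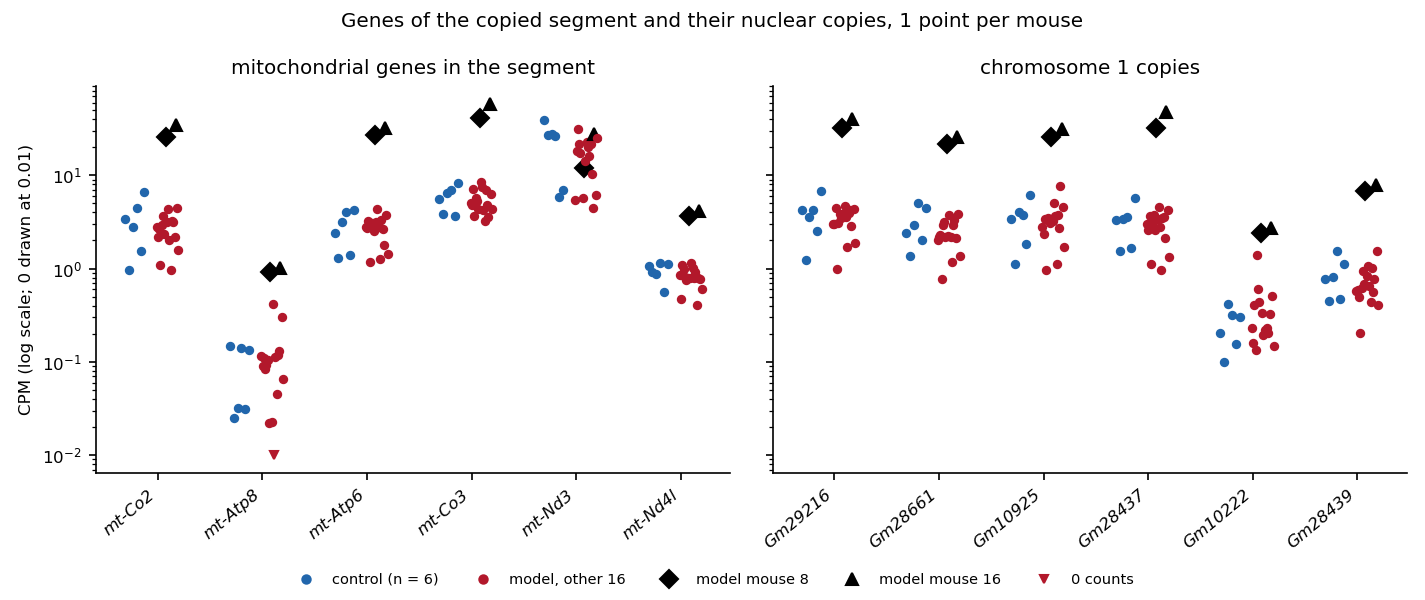
CPM on a log axis of the 6 protein genes in the copied segment (left) and of 6 chromosome 1 copies (right), 1 point per mouse, control in blue (n = 6), 16 model mice in red, model mice 8 and 16 in black; 0 is drawn at 0.01. The 2 black points stand above all others in every gene drawn except mt-Nd3.

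Of the 29 members tested, 26 varied more between model mice than the median gene, and mt-Co1 (SD of log2 CPM 0.21), mt-Nd2 (0.22) and mt-Nd5 (0.24) varied less. The other members include transfer RNA genes with few counts and the segment genes that were high in model mice 8 and 16. The median SD of log2 CPM over the 18 model libraries was 0.51 over the members tested, 0.29 over the 7 protein genes with bases outside the segment and 0.26 over all genes tested. mt-Co1 had a coefficient of variation of 14.3% in model mice, mt-Nd2 14.8%, mt-Nd5 16.1%, mt-Nd1 19.2%, mt-Nd6 19.7%, mt-Cytb 20.1% and mt-Nd4 22.0%. For mt-Rnr1 and mt-Rnr2 it was 32.5% and 31.4%. Model mouse 2 was the lowest model library in mt-Co1, mt-Cytb, mt-Nd1, mt-Nd2, mt-Nd4 and mt-Nd5, and model mouse 13 the highest in mt-Cytb, mt-Nd1, mt-Nd4 and mt-Nd5. Model mouse 10 was the highest in both ribosomal RNAs and in mt-Nd2.

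Over the 18 model mice 3 relations were computed on log2 CPM, which share library and scaling. mt-Co1 with mt-Rnr2 gave Pearson r = 0.48 (permutation p = 0.0403, adjusted over 3 relations 0.0643) and Spearman rho = 0.39 (permutation p = 0.109, adjusted 0.164). mt-Co1 with mt-Nd6 gave r = 0.48 (permutation p = 0.0429, adjusted 0.0643) and rho = 0.53 (permutation p = 0.0252, adjusted 0.0755). Without model mice 2 and 16, the libraries farthest from the median of mt-Co1, r was 0.41 and 0.37. mt-Co1 with Lrpprc, which encodes a protein that binds and stabilises mitochondrial messenger RNAs, gave r = -0.22 (permutation p = 0.377, adjusted 0.377) and rho = -0.22 (permutation p = 0.375, adjusted 0.375), and r = -0.05 without the same 2 libraries. None passed after adjustment on this scaling.

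On the TMM scale, 8 of 128 nuclear genes that express the mitochondrial genome, tested in 6 lists, rose and 66 fell (51.6%, against 28.8% of all genes), with a median log2 fold change of -0.19; scaled by library totals alone, 48 rose (37.5%, against 53.9% of all genes) and 10 fell (7.81%, against 8.95%), and the median was 0.13, which is -0.21 relative to the median of all genes. Among the transcription genes 3 of 10 rose and 5 fell. Polrmt, the mitochondrial RNA polymerase, had 22.0 ± 3.04 CPM (SD, n = 6) in controls and 14.1 ± 1.40 CPM (SD, n = 18) in model mice, with all 18 model libraries below every control (-0.64, SE 0.07, edgeR adjusted p = 4.63e-08). Mterf2, of the mitochondrial termination factor family, had 1.06 ± 0.39 and 3.31 ± 0.66 CPM, with all 18 above every control (1.64, SE 0.18, edgeR adjusted p = 2.42e-08), and its relative Mterf1b rose by 0.91 from a low level (edgeR adjusted p = 0.00615). Tfam, which packages the genome and starts its transcription, fell by 0.19 (edgeR adjusted p = 0.0263), but its value was 0.13 under library totals alone, where it did not pass.

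Among 9 genes of replication 1 rose and 3 fell (33.3%, near the 28.8% of all genes), led by Twnk, the replicative helicase (-0.56, edgeR adjusted p = 2.2e-07), and Polg2, the accessory subunit of the DNA polymerase (-0.48, edgeR adjusted p = 0.00024). Of 18 genes of RNA processing, tailing, stability and decay, 1 rose (5.56%, against 31.2% of all genes) and 10 fell (55.6%, against 28.8%). Fastkd1 fell by 0.57 (edgeR adjusted p = 4.65e-08) and Lrpprc by 0.53 (edgeR adjusted p = 1.52e-06), from 136 ± 20.0 to 94.5 ± 9.97 CPM, and in both all 18 model libraries lay below every control. Mtpap, the poly(A) polymerase of mitochondria, fell by 0.19, from 16.2 ± 1.23 to 14.2 ± 1.103 CPM (edgeR adjusted p = 0.00688), and came to 0.14 without passing under library totals alone. Of 5 genes that modify the ribosomal RNAs 3 fell, led by Nsun4, a methyltransferase of the 12S RNA (-0.77, edgeR adjusted p = 3.03e-09), and Mrm3, a methyltransferase of the 16S RNA (-0.37, edgeR adjusted p = 0.00245).

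Of 9 regulators of mitochondrial biogenesis 4 fell (44.4%, against 28.8% of all genes) and 0 rose. Esrra, a nuclear receptor, fell from 45.1 ± 7.15 to 27.0 ± 2.73 CPM (-0.74, edgeR adjusted p = 9.53e-09), and Ppargc1a, the coactivator PGC-1alpha, from 11.4 ± 5.12 to 8.18 ± 1.91 CPM (-0.48, edgeR adjusted p = 0.0289). Ppargc1a overlapped widely between the groups, with 1 of 18 model libraries below every control. Of 77 mitochondrial ribosome proteins tested 3 rose (3.90%, against 31.2% of all genes) and 41 fell (53.2%, against 28.8%). Mrpl15 fell by 0.66 (edgeR adjusted p = 1.93e-07), and Mrpl23 rose by 0.57 from 0.812 to 1.20 CPM (edgeR adjusted p = 0.00186). Under library totals alone Polrmt, Twnk, Fastkd1, Lrpprc, Nsun4, Esrra and Mrpl15 still passed as lower, and Polg2, Mrm3 and Ppargc1a did not.

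The nuclear subunits that pair with the mitochondrial protein genes also fell on the TMM scale, 54 of 71 tested (76.1%, against 28.8% of all genes) with 0 higher and a median of -0.31, while the 12 mitochondrial protein genes tested had 0 calls and a median of -0.11. With library totals alone 3 rose (4.23%, against 53.9% of all genes) and 9 fell (12.7%, against 8.95%), and the median was 0.02, or -0.33 relative to the median of all genes. Complexes were listed by gene symbol, with Ndufa4 counted under complex I. On these lists 24 of 37 fell in complex I, 8 of 9 in complex III, 10 of 10 in complex IV and 12 of 15 in complex V. Ndufs7 and Ndufb9 of complex I fell by 0.64 and 0.55, and Cyc1 and Uqcrh of complex III by 0.57 and 0.54. Cox7a2 and Cox7c of complex IV fell by 0.43 and 0.37, and Atp5g1 and Atp5b of complex V by 0.56 and 0.50, with edgeR adjusted p from 9.02e-08 (Uqcrh) to 0.00026 (Cox7a2) over these 8. Whether mitochondrial and nuclear subunits differed from each other was not tested.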

How the data were processed

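Per the labels' protocols, liver RNA was extracted with Trizol, captured on oligo(dT) beads and sequenced as DNA nanoballs. The authors deposited raw read counts per gene with each gene's position, strand and exon length. Per the submitters' processing notes the build was GRCm39; the sources used here name no aligner, counting program, strand setting or treatment of reads matching several places. The deposited Length column (bases, not a count; no unit of expression) served to give levels per kilobase.

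Genes were tested with edgeR 4.0.16 (R 4.3.3), TMM factors, its expression filter by group and quasi-likelihood F test, Benjamini-Hochberg over 17456 genes. CPM values were computed from the deposited counts with TMM factors unless library totals are named. Alternatives used DESeq2 1.42.0, limma-voom 3.58.1, other factors and filters, a clock index, a replicate block and each library left out. Ratios added 0.5 to each count; relations used 100000 resamples. On simulated data of 17152 genes, 89 of 95 2-fold and 41 of 99 1.5-fold changes were found, with 10 false calls. Replicates were compared over 168 pairs within groups, and none agreed within sampling noise (smallest chi-square per degree of freedom 19.1).

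Named were all protein and ribosomal RNA genes, the 3 transfer RNA genes with the highest mean and any called, the 2 called genes with the largest change in each nuclear list, and Polrmt, Tfam, Lrpprc, Mtpap and Ppargc1a. The members and lists were chosen with earlier results of these data known. Nothing beyond 1 library per mouse is stated about the samples' origin, so p-values measure the spread between these libraries.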

Additional observations from a re-analysis of the deposited data

Results flagged for a closer look

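Of 30 measures checked in the 6 controls (single members, shares and ratios), the CPM of mt-Cytb was singled out by 1 sample far from the others: control 5 had 5908 CPM and the next lowest control 10454 CPM, a gap of 0.677 of the whole range, above Dixon's 95% critical value. Chance flags about 1 in 20 such groups. Control 5 was also the lowest control in mt-Nd1, mt-Nd4, mt-Nd6, mt-Rnr1 and mt-Rnr2. Without it mt-Cytb came to -0.26 on the log2 scale (edgeR adjusted p = 0.108).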

How the results depend on the processing

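The calls of mt-Rnr1, mt-Rnr2, mt-Tp and mt-Ty held under all alternatives except the clock index as a covariate, under which 0 members fell. The genes mt-Atp8, mt-Ta, mt-Tt and the 5 members at 0 had too few counts to pass the filter and were not tested. Reads that may be shared with chromosome 1 leave uncertain the 6 protein genes and 5 transfer RNA genes of the segment, and mt-Co1 and mt-Nd4, which lie partly inside it. Oligo(dT) capture limits the ribosomal and transfer RNA genes, whose levels are those of captured RNA. The causes of the shifts below were not tested.

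Library totals alone gave 9406 genes higher and 1562 lower, members 1 higher and 4 lower, nuclear expression genes 48 higher and 10 lower and nuclear subunits 3 higher and 9 lower, and turned mt-Nd1 (0.22), mt-Nd2 (0.12), mt-Nd4 (0.22), mt-Nd5 (0.22), mt-Nd6 (0.15) and mt-Cytb (0.20) positive. Upper-quartile factors gave 13 of 128 nuclear expression genes higher (10.2%, against 36.0% of all genes) and 46 lower (35.9%, against 21.4%). The clock index gave 3590 genes higher (20.6%) and 2927 lower (16.8%). Nuclear expression genes were then 2 higher (1.56%) and 58 lower (45.3%), and nuclear subunits 1 higher (1.41%) and 49 lower (69.0%). This covariate turned mt-Nd2 (0.0738), mt-Nd3 (0.71), mt-Nd4 (0.0284), mt-Nd5 (0.46), mt-Nd6 (0.15), mt-Tc (0.0129), mt-Tn (0.19) and mt-Tl1 (0.53) positive.

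Replicate numbers did not pair the samples: same-numbered control and model mice had deviations correlated at -0.29 to 0.07, and 1 of 6 controls correlated best with its own number. With the replicate block, 25.4% of all genes tested were called higher and 19.4% lower. Only numbers 1 to 6 occur in both groups, so this fit compared controls 1 to 6 with model mice 1 to 6. Its group difference took nothing from the other model mice, 8 and 16 among them. Of the 29 members 1 was higher (mt-Tw, 1.02, edgeR adjusted p = 0.0244) and 5 lower. Of 128 nuclear expression genes 3 were higher and 37 lower, and of 71 nuclear subunits 31 were lower. In this fit mt-Co1 (-0.0398), mt-Co2 (-0.22), mt-Co3 (-0.11) and mt-Nd4l (-0.19) turned negative. Over the 6 pairs by number the log2 ratio of mt-Rnr2 to mt-Co1 differed by -0.85 (exact permutation adjusted p = 0.375, where the smallest unadjusted p possible is 0.03125).

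limma-voom gave mt-Nd4l at -0.000211. Without model mice 8 and 16, an alternative chosen after seeing the data, mt-Co2 was -0.30, mt-Atp6 -0.0424, mt-Co3 -0.13, mt-Nd4l -0.22 and the ratio of mt-Nd4l to mt-Nd4 -0.15. With medians in place of means, the ratios were 0.0533 (mt-Nd6 to mt-Cytb), -0.19 (mt-Nd5 to mt-Nd1) and -0.0334 (mt-Nd4l to mt-Nd4). With library totals, mt-Co1 with Lrpprc over model mice gave r = -0.51 (permutation p = 0.0292, adjusted 0.0514; -0.38 without 2 libraries). Spearman rho of mt-Co1 with mt-Rnr2 and with mt-Nd6 was then 0.53 each (permutation p adjusted 0.0407). The difference in mitochondrial share, 1.03 percentage points, was 1.15 against counts outside the mitochondrial genome and 1.06 without the 20 most abundant other genes; without those 20 the shares themselves were higher, 6.64% in controls and 7.70% in model mice.

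Leaving out each library in turn gave 6 to 9 members lower, 5 to 9 nuclear expression genes higher (5 without control 5), mt-Nd5 at -0.22 to 0.0032 (positive without control 4), mt-Tl1 at -1.16 to -0.66, and ratios of -0.0912 to 0.0582 (mt-Rnr1 to mt-Rnr2), -0.0818 to 0.0929 (mt-Nd5 to mt-Nd1), -0.0906 to 0.34 (mt-Atp8 to mt-Atp6) and -0.0037 to 0.19 (mt-Nd4l to mt-Nd4). The ratio of mt-Rnr2 to mt-Co1 ran from -1.06 to -0.82 and passed each time.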

Other observations

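The RNAs that stay in or near the nucleus, Malat1 and Neat1, were checked beside the mitochondrial genes. Neat1 rose by 2.24 on the log2 scale (edgeR adjusted p = 1.73e-06) and Malat1 stood at 0.44 without passing (edgeR adjusted p = 0.105). Their part in the mitochondrial results was not tested.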
